A study of Drosophila melanogaster with 2 samples.

Results

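The genes for the protein factors that start, extend and end translation were examined for schlank-GFP peaks in fly embryos. They were the protein-coding genes of the Ensembl annotation of assembly dm6 whose names begin with eIF, eEF or eRF. There were 54 of them among 13945 protein-coding genes, comprising 44 initiation factor genes (eIF), 8 elongation factor genes (eEF) and 2 release factor genes (eRF). Arm 2R held 13 of the 54.

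ChIP-seq, the sequencing of DNA recovered with a protein, was performed on intact embryos of Drosophila melanogaster, both sexes together and 0 to 24 h old, from 1 transgenic line. That line stably expressed schlank, the fly ceramide synthase that also carries a homeodomain, with GFP fused to its C-terminus. The peaks are named here after the tagged protein, and the labels do not say whether untagged schlank was also recovered. There was 1 group of 2 biological replicates and no second condition, so replicate spread could be shown but no test between conditions could be made. The antibody field named schlank for both libraries, although their free-text description called both of them input controls.

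Initiation factors bring the small ribosomal subunit and the initiator tRNA to the mRNA cap, scan for the start codon and join the large subunit. Elongation factors deliver aminoacyl-tRNA and move the ribosome along the mRNA, and release factors end the chain at a stop codon. In animals, the promoters of many ribosomal protein and translation factor genes share a pyrimidine-rich initiator, which in flies is called the TCT initiator. Many other fly housekeeping promoters carry the binding site of the transcription factor Dref.

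Of the 54 translation factor genes, 13 had a thresholded peak at a promoter, meaning a peak of the authors' optimal IDR set (2790 peaks) with its summit within 500 bp of an annotated transcription start site (TSS). These were 9 initiation factor genes (eIF6, eIF4EHP, eIF1, eIF3h, eIF3a, eIF5B, eIF3c, eIF2A and eIF4A) and 4 elongation factor genes (eEF1gamma, eEF2, eEF1alpha1 and eEF5). That was 24.1% of the 54 genes, against 12.7% of all 13945 protein-coding genes. The promoter of eIF6, whose product keeps free large ribosomal subunits from joining too early, held the strongest of these peaks and the one ranked 12 of 2790. The genes of eIF4G1, eIF2alpha, eIF2beta and eIF5, which encode central scaffold and start-site factors, had no pooled candidate at their promoters.

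Each candidate list held 30000 entries, made for IDR and so containing background as well as peaks. A pooled candidate lay at the promoter of 36 of the 54 genes (66.7%), against 47.9% of all protein-coding genes. Among genes with such a candidate, the thresholded set kept 13 of 36 in the translation factor group (36.1%), against 26.6% of all genes (1776 of 6674). Counting also summits anywhere inside the gene left the group at 13 of 54 (24.1%), while the share of all genes was 16.7%. The group's genes had a median length of 1967.5 bp and the whole set 2166 bp, and the median number of TSSs was 1 in each.

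The 2 replicates were then read separately, taking as called a promoter candidate among the 2790 strongest of that replicate. Replicate 1 called 12 of the 54 genes (22.2%), against 12.9% of all genes. Replicate 2 called 14 of them (25.9%), against 12.2% of all genes. In both replicates 9 genes (16.7%) were called, against 8.48% of all genes, and neither called 37. The group's share was above that of all genes in each library. The totals of the replicates differed by 2 genes, but the genes differed more, since only 9 were common to the 12 and the 14.

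**Figure D1:**
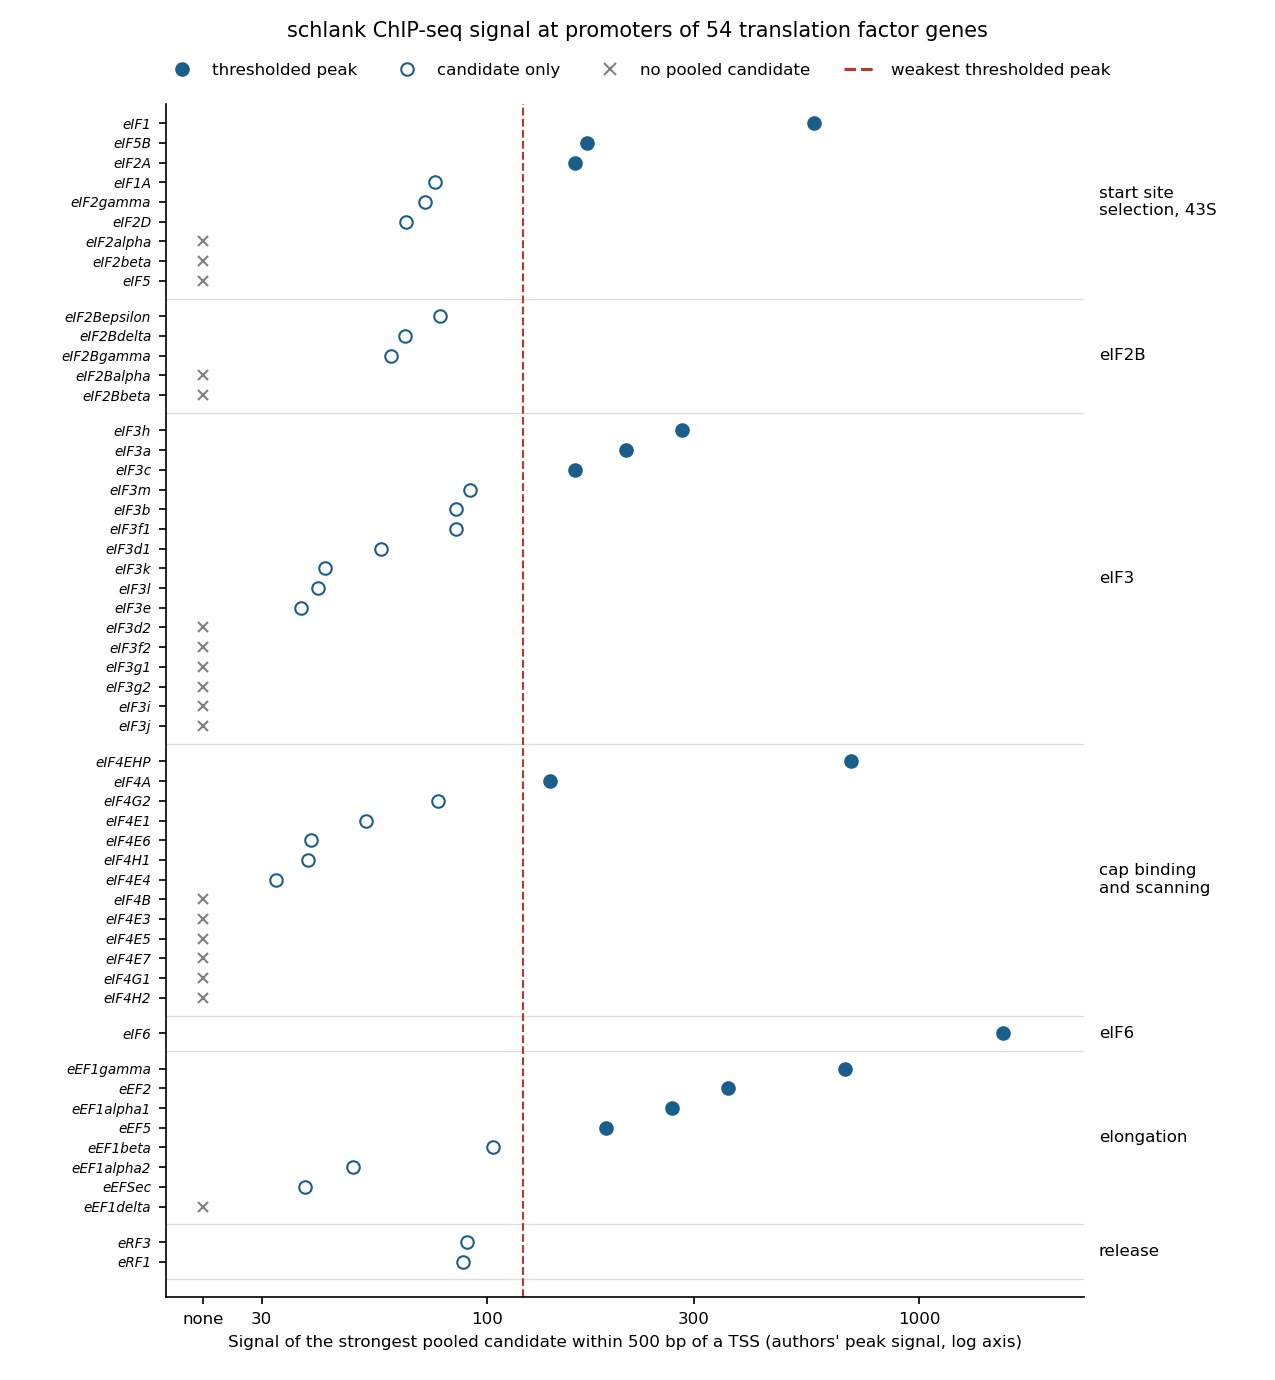
Pooled signal of the strongest candidate within 500 bp of a TSS (horizontal, log axis, the authors' signal with no unit stated) for each of the 54 translation factor genes (rows), grouped by role. Filled points are the 13 genes with a thresholded peak, open points have a candidate only, crosses have none, and the dashed line is the weakest thresholded peak at 121. eIF6 stands highest at 1558, while the eIF2B and release factor groups hold no filled point.

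Signal here is the peak strength deposited by the authors, with no scale stated, and values were set side by side only within a list. The depth of the libraries is unknown. The 13 strongest promoter peaks of the group had a median pooled signal of 267 (quartiles 170 and 569, range 139 to 1558), against 197 (quartiles 149 and 306) over the 1776 genes with a promoter peak. The ratio of the 2 medians was 1.36, and it was 1.37 from replicate 2 alone, 0.916 from replicate 1 alone, 1.02 with a 250 bp window and 1.25 in the stronger 50% of the peaks. A higher typical signal in the group was therefore not seen in both libraries.

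Of the 9 genes grouped as start-site and subunit-joining factors, 3 had a peak (33.3%, against 12.7% of all genes). They were eIF1, eIF5B and eIF2A, with pooled signals of 159 to 569, while eIF6 was set in a group of its own. At eIF6 the pooled signal was 1558, with 319 in replicate 1 (rank 32) and 1245 in replicate 2 (rank 9). Its summit, at chr2R:23850410, lay 109 bp upstream of the TSS, and its signal exceeded that of 99.5% of the 1776 genes with a promoter peak. The next gene of the group was eIF4EHP in replicate 1 (298, rank 42) and eEF1gamma in replicate 2 (497, rank 109). At eIF1, which guards the choice of the start codon, the pooled signal was 569 (rank 160), with 173 in replicate 1 (rank 171) and 396 in replicate 2 (rank 177). The replicates placed eIF1 at nearly the same rank. At eIF5B, the GTPase that joins the large subunit, the pooled signal was 170 (rank 1596), with 36.8 in replicate 1 (rank 3336) and 117 in replicate 2 (rank 1736). At eIF2A, a factor that can bring initiator tRNA outside the main pathway, the pooled signal was 159 (rank 1773), with 26.6 in replicate 1 (rank 6108) and 134 in replicate 2 (rank 1356). Both eIF5B and eIF2A fell outside the 2790 strongest candidates of replicate 1 and inside those of replicate 2.

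Cap-binding factors were split between 1 strong peak, 1 weak peak and 11 genes without one. The peak of eIF4EHP, a cap-binding protein that does not recruit eIF4G and in flies represses caudal and hunchback mRNA, had a pooled signal of 695 (rank 98). Its signal was 298 in replicate 1 (rank 42) and 404 in replicate 2 (rank 165). The peak of eIF4A, the helicase that unwinds the mRNA leader, was the weakest of the 13, with a pooled signal of 139 (rank 2235), 33.7 in replicate 1 (rank 3908) and 109 in replicate 2 (rank 1972). The main cap-binding gene, eIF4E1, had only a candidate, which reached 52.2 after pooling, while replicate 1 gave 17.0 and replicate 2 gave 45.4. The scaffold gene eIF4G1 on chromosome 4 had a candidate of 15.6 in replicate 1 and none in replicate 2 or the pooled list. Thus the genes of the cap-binding complex stood at widely different levels, and that of its scaffold was not listed in 2 of the 3 candidate lists.

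The eIF3 complex, the scaffold of the initiation complex on the small subunit, was represented by 16 genes, of which 10 had a pooled candidate (62.5%, against 47.9% of all genes) and 3 a thresholded peak (18.8%, against 12.7%). With 16 genes, 3 is near the share of all genes. At eIF3h the strongest summit had a pooled signal of 282 (rank 657), with 57.3 in replicate 1 (rank 1535) and 231 in replicate 2 (rank 517). A second eIF3h summit, at chr2L:5052729, had a pooled signal of 133, with 42.2 in replicate 1 and 116 in replicate 2. At eIF3a the pooled signal was 210 (rank 1109), with 44.0 in replicate 1 (rank 2450) and 163 in replicate 2 (rank 981). At eIF3c it was 160 (rank 1762), with 56.4 in replicate 1 (rank 1576) and 106 in replicate 2 (rank 2048). All 3 were among the 2790 strongest candidates of both replicates. The eIF3m and eIF3d1 genes passed that rank in replicate 1 alone, with 44.8 (rank 2366) and 41.7 (rank 2691), which brought the count of eIF3 genes to 5 in that library.

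Split by name, elongation factor genes had a peak in 4 of 8 cases (50%), initiation factor genes in 9 of 44 (20.5%) and release factor genes in 0 of 2, against 12.7% of all genes. Elongation factor genes had a median of 2 TSSs, against 1 for initiation factor genes and 1 for all genes. More start sites were thus searched per elongation factor gene. The median signal of the 4 elongation factor peaks was 313, against 197 for all genes. The strongest was eEF1gamma, a subunit of the complex that recharges eEF1 alpha with GTP, with a pooled signal of 671 (rank 108), 180 in replicate 1 (rank 158) and 497 in replicate 2 (rank 109). At eEF2, which moves the ribosome by 1 codon, the pooled signal was 360 (rank 430), with 115 in replicate 1 (rank 402) and 251 in replicate 2 (rank 429). Ranks of these genes were close in the 2 libraries. At eEF1alpha1, which carries aminoacyl-tRNA to the ribosome, the pooled signal was 267 (rank 724), with 236 in replicate 2 (rank 496). In replicate 1 the candidate at that summit had 32.6 (rank 4119), and a stronger one with 50.6 (rank 1897) lay more than 200 bp from the summit, within 500 bp of a TSS of the same gene. At eEF5, which relieves stalled ribosomes, the pooled signal was 188 (rank 1332), with 34.3 in replicate 1 (rank 3785) and 157 in replicate 2 (rank 1047). The eEF1beta gene, whose product acts with eEF1gamma, had a pooled candidate of 103 and one of 99.8 in replicate 2 (rank 2275), but none in replicate 1.

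**Figure D2:**
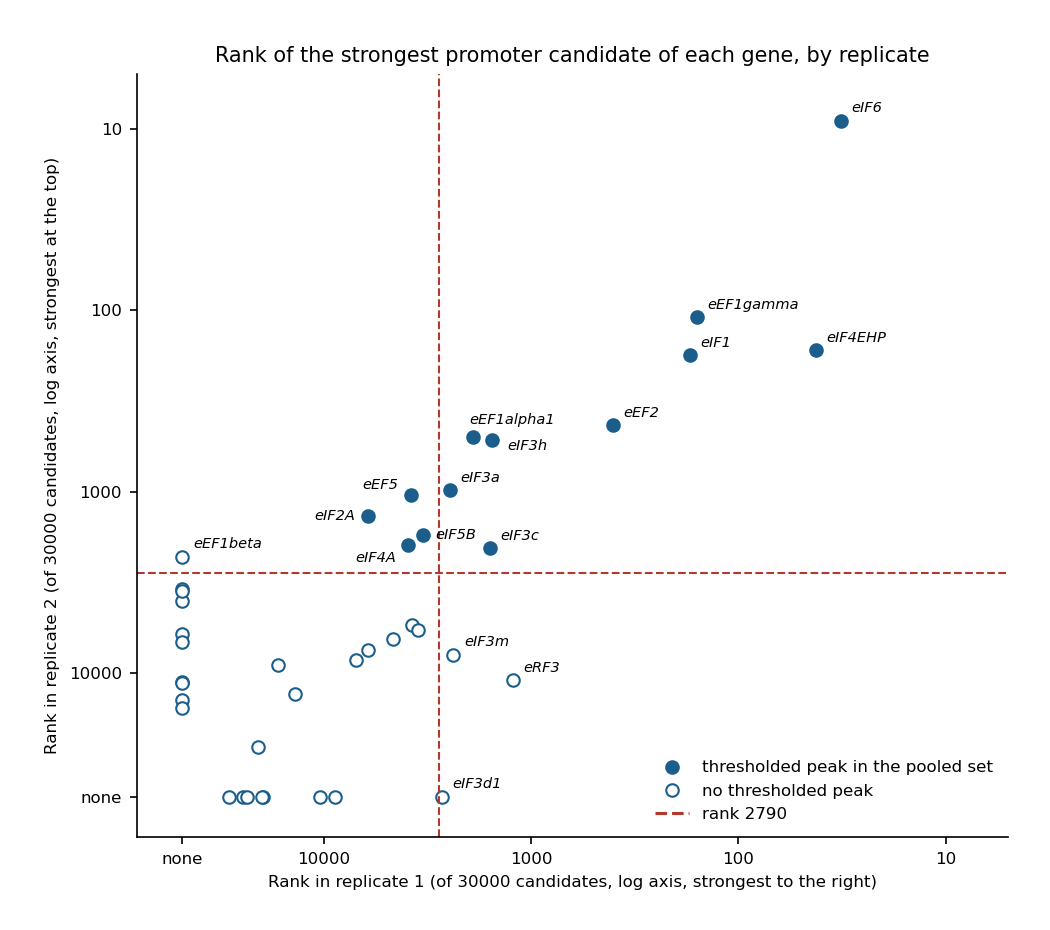
Rank of the strongest promoter candidate of each translation factor gene in replicate 1 (horizontal) and replicate 2 (vertical), both on log axes with the strongest at the right and top. Dashed lines mark rank 2790, filled points are the 13 genes with a thresholded peak, and the 9 genes in the upper right corner are inside that rank in both libraries.

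All 13 promoter peaks had a candidate summit within 200 bp in both replicates, against 94% of the 1776 genes with a promoter peak. The matching candidates of all 13 ranked within the 2790 strongest in replicate 2, whereas those of eEF1alpha1, eEF5, eIF5B, eIF2A and eIF4A did not in replicate 1. The eEF1alpha1 gene was called in replicate 1 through its other candidate.

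Of the 41 genes without a peak, 23 had a pooled candidate with signals of 32.3 to 103 (median 64.5), all below the weakest thresholded peak of the whole set at 121. Among these 23, a promoter candidate was listed for 12 in replicate 1, for 19 in replicate 2 and for 10 in both. The release factors were in this class. The stop codon reader eRF1 had a pooled signal of 87.7, with 35.7 from replicate 1 and 58.8 from replicate 2. Its GTPase partner eRF3 had a pooled signal of 89.6, while replicate 1 gave 64.7 (rank 1225) and replicate 2 gave 40.9 (rank 10881), so its standing differed strongly between libraries. The exchange factor eIF2B, which reloads eIF2 with GTP, had 5 genes and no thresholded peak, and none of the 5 had a candidate in replicate 1. Pooled candidates of eIF2Bepsilon, eIF2Bdelta and eIF2Bgamma had signals of 77.8, 64.5 and 59.7. The value at eIF2Bepsilon was also that at the promoter of Ocrl on the same chromosome, so these genes appear to share the candidate.

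The other 18 genes had no pooled promoter candidate. They were eIF2alpha, eIF2beta, eIF5, eIF2Balpha, eIF2Bbeta, eIF3d2, eIF3f2, eIF3g1, eIF3g2, eIF3i, eIF3j, eIF4B, eIF4E3, eIF4E5, eIF4E7, eIF4G1, eIF4H2 and eEF1delta. At eIF2alpha, the subunit whose phosphorylation shuts down initiation, replicate 2 alone listed a candidate with a signal of 40.3. Replicate 1 listed one for 6 of the 18 genes, and 11 had none in any list. Within the eIF2 trimer only eIF2gamma had a pooled candidate, with 71.6, and it had none in replicate 1. A candidate with the same signal was listed at the promoter of Set on the same arm, so the 2 genes appear to share it. An unlisted promoter lies below the weakest entry of the list, which was 12.5 for replicate 1, 23.2 for replicate 2 and 30.7 after pooling, and is not shown to be free of signal.

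Among gene copies with similar products, peaks were not shared. The eEF1alpha1 promoter had its peak of 267, against a pooled candidate of 48.7 at eEF1alpha2. Among the 16 eIF3 genes, the copies eIF3d2 and eIF3f2 had no pooled candidate, against candidates of 56.8 and 84.5 at eIF3d1 and eIF3f1. None of these eIF3 copies had a thresholded peak, nor did the copies of eIF3g, eIF4G and eIF4H, so there was no peak to share. In the eIF4E family, only eIF4EHP had a thresholded peak.

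Peaks of this group sat close to the start site. The median summit of the 13 was at -61 bp (range -340 to 255 bp), where negative values are upstream, against -121 bp over the 1776 genes. Summits lay within 100 bp of the nearest TSS in 8 of 13 (61.5%), against 34.9% of the 1776. They lay upstream of that TSS in 11 of 13 (84.6%), against 83.8%. Where a gene had several TSSs, a summit upstream of the nearest could still be inside the gene. This held for eEF2, eIF5B and eIF2A, in an exon ahead of the coding sequence, and for eEF1alpha1, in an intron. The eEF1gamma summit, at chr3R:29220173, lay 1 bp downstream of the TSS in the first exon. Those of eEF5, eIF3c, eEF2, eEF1alpha1 and eIF3a lay at -9, -11, -23, -49 and -61 bp, and those of eIF2A, eIF4A and eIF5B at -70, -80 and -167 bp. With fragments of 200 to 800 bp, per the labels, such offsets are finer than the DNA that was sequenced.

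**Figure D3:**
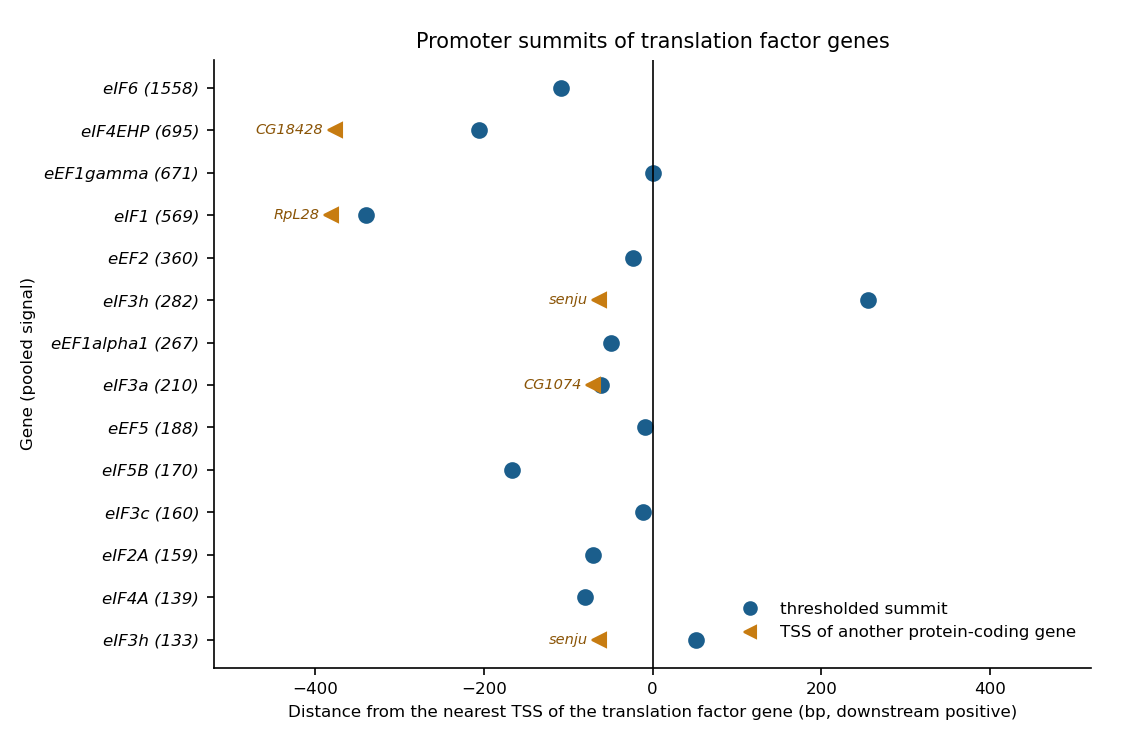
Distance of each thresholded promoter summit (circles) from the nearest TSS of its translation factor gene (bp, negative upstream), with 1 row per summit, pooled signal in brackets, and a triangle at the TSS of a divergent neighbour where the summit is shared. Rows run from the strongest to the weakest summit, eIF3h has 2, and the strongest summits of the 13 genes run from -340 to 255 bp, 8 of them within 100 bp.

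At 4 of the 13 genes the summit was also within 500 bp of the TSS of a divergent neighbour. For eIF1 the neighbour was RpL28, a large-subunit ribosomal protein gene, whose TSS is 381 bp from that of eIF1. The summit lay at -41 bp from RpL28 and at -340 bp from eIF1. For eIF4EHP it lay at -170 bp from CG18428 and at -206 bp from eIF4EHP, and for eIF3a at -9 bp from CG1074 and at -61 bp from eIF3a. In each of these cases the neighbour's start was the nearer one. For eIF3h, which has a TSS 63 bp from that of senju, the strongest summit lay inside the gene at 255 bp and at -318 bp from senju. The share of the 1776 genes with such a neighbour was not counted. Assigning each summit to its nearest TSS left 10 of the 13 genes, and 1335 of the 1776 over all genes. That was 10 of 54 genes, against 9.57% of all genes, so part of the count rests on promoters that cannot be told apart here.

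The DNA beneath the summits was read from the RefSeq Release 6 genome, which carries the dm6 coordinates, and 50 bp on either side of the summit are shown for 7 genes with strong peaks or core roles. They are printed on the gene's own strand, and capitals mark letters that were searched for. The eEF1gamma, eIF3a and eIF4A stretches hold the whole Dref site, and that of eEF2 its core. The eIF1 stretch ends inside a Dref site, so only the core is seen. The eIF4EHP stretch holds a homeodomain core (TAATTA) that overlaps TATA box letters. The eIF3h stretch holds none of the 8 searched strings.
eIF4EHP, chr3R:24109116-24109216, minus strand: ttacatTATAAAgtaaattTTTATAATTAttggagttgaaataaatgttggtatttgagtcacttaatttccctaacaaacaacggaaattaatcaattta
eEF1gamma, chr3R:29220123-29220223, plus strand: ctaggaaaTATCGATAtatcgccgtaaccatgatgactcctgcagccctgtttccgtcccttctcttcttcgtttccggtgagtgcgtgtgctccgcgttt
eIF1, chr3L:3222951-3223051, plus strand: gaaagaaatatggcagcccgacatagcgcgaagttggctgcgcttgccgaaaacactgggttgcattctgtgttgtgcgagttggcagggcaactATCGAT
eEF2, chr2L:21682089-21682189, minus strand: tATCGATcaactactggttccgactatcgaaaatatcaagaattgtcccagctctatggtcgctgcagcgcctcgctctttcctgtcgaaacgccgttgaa
eIF3h, chr2L:5052475-5052575, minus strand: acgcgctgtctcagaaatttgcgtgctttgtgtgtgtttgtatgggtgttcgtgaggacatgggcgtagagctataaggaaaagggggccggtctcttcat
eIF3a, chr3R:4433906-4434006, minus strand: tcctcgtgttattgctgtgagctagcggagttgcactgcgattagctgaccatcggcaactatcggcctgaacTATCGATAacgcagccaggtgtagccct
eIF4A, chr2L:5981634-5981734, plus strand: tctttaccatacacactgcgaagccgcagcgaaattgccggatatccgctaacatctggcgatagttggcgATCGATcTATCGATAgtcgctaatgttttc

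Within 100 bp of the summit on either strand, the Dref site TATCGATA was found at 5 of 13 peaks (38.5%: eIF4A, eIF1, eIF2A, eIF3a and eEF1gamma). The share was 7.32% over the 1776 genes with a promoter peak, a shared peak counting once per gene, and 7.84% of first TSSs of all genes. The core ATCGAT, which lies inside the full Dref site, was found at 6 of the 13 peaks (46.2%, with eEF2 added), against 15.5% and 18.9%. The centre of the full site lay at -37.5 bp from the TSS of eEF1gamma, -34.5 bp at eIF3a and -48.5 bp at eIF4A. It lay at -85.5 bp at eIF2A and -292.5 bp at eIF1. These letters were also frequent where no peak was called. In windows of the same size around the first TSS, TATCGATA was found at 4 of 13 genes with a peak, 5 of 23 with a candidate only and 4 of 18 with neither. That made 13 of 54 (24.1%), against 7.84% of all genes and 10.1% of genes with a peak. The share was above that of all genes with and without a schlank-GFP peak.

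**Figure D4:**
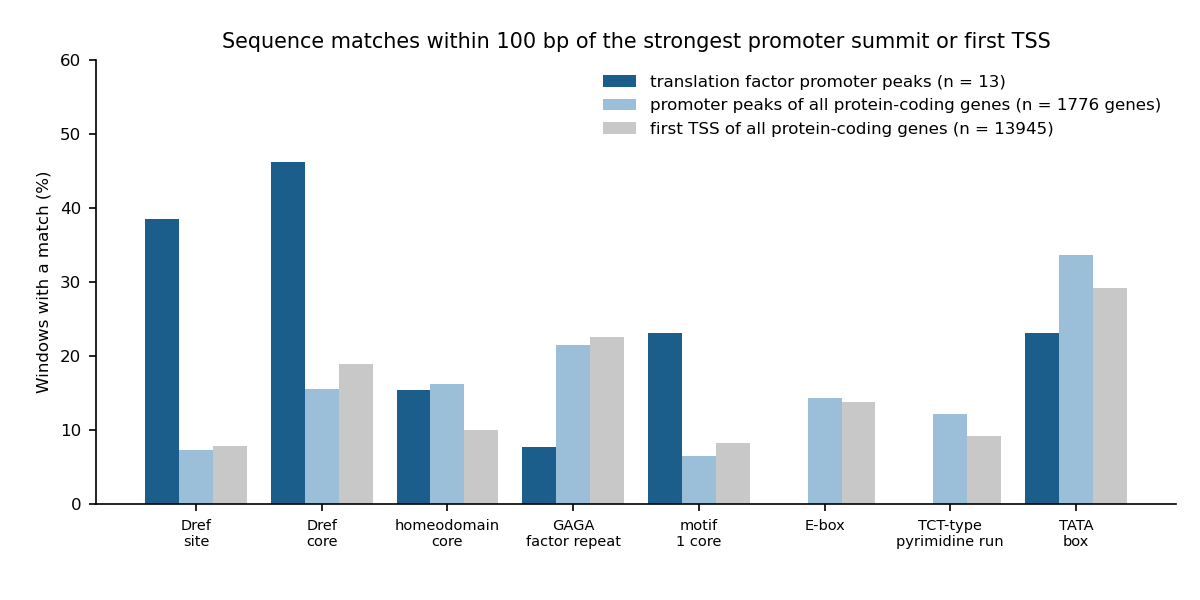
Percentage of windows holding each of the 8 searched strings within 100 bp of the summit, for the 13 translation factor peaks, then the promoter peaks of all 1776 genes, then the first TSS of all 13945 genes. The Dref site reaches 38.5% against 7.32%, and the E-box and pyrimidine strings are at 0 in the 13.

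The homeodomain core TAATTA, searched because schlank carries a homeodomain, was found at 2 of the 13 peaks (15.4%, eIF3a and eIF4EHP). The share was 16.2% over the 1776 genes with a promoter peak and 9.95% of first TSSs. Within 50 bp it was found at 1 of the 13. At the strongest candidate summits of genes without a thresholded peak, it was found at 7 of 23 translation factor genes (30.4%), against 11.8% of all such genes. Around the first TSS it was found at 0 of 13 genes with a peak and 3 of 23 with a candidate only. Of the 18 with neither, 0 had it, which made 3 of 54 (5.56%), against 9.95% of all genes. The motif 1 core GGTCACA was found at 3 of the 13 peaks (23.1%, eEF1alpha1, eIF6 and eIF2A), against 6.42%. Around the first TSS it was instead found at 0 of the 13 genes with a peak, against 10.5% of all genes with one, and at 6 of the 18 with no candidate (33.3%). The GAGA factor string GAGAG was found at 1 (7.69%, eIF3c), against 21.5%, and TATAAA at 3 (23.1%, eIF6, eIF3a and eIF4EHP), against 33.7%. The E-box CAGCTG and the pyrimidine run TTCTTTT were in none of the 13 windows, against 14.3% and 12.2% over the 1776 genes. With 13 windows, 1 match is 7.69%. GC content was 41.6% ± 7.39 (SD, n = 13), against 37.5% ± 7.47 (SD, n = 1776). The eIF4EHP window was the most AT-rich of the 13 with a GC content of 20.9%.

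A pair of long genes also held summits far from their starts. In eIF4EHP, 45.9 kb long, 22 pooled candidates lay away from the promoter, all of them in introns, at 0.479 per kb. Of these, 2 lay also inside Syx1A, a gene within eIF4EHP, and 1 was within 500 bp of the Syx1A TSS. In eIF5B, 32.3 kb long, 23 did so, 22 of them in introns, at 0.712 per kb. The 356 protein-coding genes of 30 to 50 kb had a median of 8 candidates and 0.193 per kb, and 90.7% of them had fewer than eIF4EHP and 93.0% fewer than eIF5B. Each gene held 1 thresholded summit there, against 33.4% of the long genes with at least 1. The intron summit of eIF4EHP, at chr3R:24099171 and 9789 bp from the nearest TSS of the gene, had a pooled signal of 167, with 15.0 in replicate 1 (rank 21351) and 140 in replicate 2 (rank 1250). That of eIF5B, at chr3L:3432907 and 27696 bp from the TSS, had a pooled signal of 132, with 52.0 in replicate 1 (rank 1817) and 85.3 in replicate 2 (rank 2985). The nearest annotated gene start was that of Syx1A for the first summit (6592 bp) and that of sty for the second (7972 bp). The first rested mainly on replicate 2, and the second was present in both at similar ranks.

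Genes that regulate or feed these factors had a promoter peak in 15 of 63 cases (23.8%), against 12.7% of all genes, and in 34.9% of the 43 with a pooled candidate, against 26.6%. Regulators of the mRNA cap and leader had a median of 2.5 TSSs, against 1 over all genes. Of these 12 regulators, 5 had a peak (41.7%). The strongest was larp, a binder of pyrimidine-tract mRNA leaders, with a pooled signal of 1092 (rank 37), 246 in replicate 1 (rank 64) and 850 in replicate 2 (rank 31). Thor, the eIF4E-binding protein, had 324, with 82.2 in replicate 1 and 230 in replicate 2, and bel, brat and Fmr1 had 136, 134 and 132. Of the genes around eIF2 phosphorylation 1 of 5 (20%) had a peak, Atf3, a stress transcription factor, with 1278 (rank 25), 216 in replicate 1 and 1073 in replicate 2. In the TOR pathway the count was 3 of 10 (30%), with REPTOR at 573, RpS6 at 224 and mTor at 129. Among cytoplasmic aminoacyl-tRNA synthetases it was 5 of 20 (25%), with SerRS highest at 313, then GluProRS at 208, ArgRS at 146, ThrRS at 141 and AsnRS at 122. A mixed list that included recycling and rescue genes gave 1 of 8 (12.5%), close to the share of all genes. Its peak was at Mettl5 with 168, and the promoter of Max on the same arm had a peak of the same signal and rank. Mitochondrial translation factors gave 0 of 8. Ribosomal protein genes, recognised by name, gave a larger share than any of these lists, since 66 of 92 (71.7%) had a peak, or 83.5% of the 79 with a candidate, with a median signal of 341.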

How the data were processed

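The deposited peak lists of both replicates, of the pooled replicates and of the thresholded set were used, on assembly dm6 per the labels. The signal is the peak strength deposited by the authors' peak caller on an unstated scale, and the deposited −log10 q-value was not used to rank peaks. The aligner, peak caller and IDR threshold were not given in the sources used here. A summit was the start plus the deposited offset of column 10. Summits were assigned with Python 3.11.15, numpy 2.4.6 and pandas 2.3.3 to every protein-coding gene of Ensembl release 115 with a TSS within 500 bp, and separately to gene spans. All 54 genes had the same coordinates in RefSeq. The assignment, tested on simulated summits, recovered 200 of 200. Every member with a thresholded peak was named, with 8 strongest peaks and a fixed set of core factors in detail, plus the listed translation genes with a peak. The members and lists were chosen with earlier results of these data known. Tor and Rictor of the list are annotated as mTor and rictor. Searches at the TSS, long-gene values and ratios of medians were added after seeing the data. Sequences from arm 2R are not shown here.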

Additional observations from a re-analysis of the deposited data

How the results depend on the processing

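No paired analysis was possible because there was 1 group of libraries and no second group to pair it with. The count of 13 genes with a promoter peak was 9 in the stronger 50% of the peaks (without eIF5B, eIF3c, eIF2A and eIF4A), 12 with a 250 bp window (without eIF1), 14 with a 1000 bp window (eIF2Bbeta added) and 10 with nearest TSSs only. Each was still a larger share than that of all genes. Leaving out each replicate gave 12 to 14 for all members, 8 to 9 for initiation factors, 4 to 5 for elongation and release factors, 3 to 5 for eIF3 genes, 12 to 20 for the other translation genes and 13 to 14 for any peak. In the stronger 50% of the peaks, initiation factor genes fell to 5 of 44 (11.4%) and the other translation genes to 7 of 63 (11.1%), against 7.16% of all genes at that setting. The median signal there was 360, against 288 for all genes. With a 250 bp window that median was 199, against 195. With only the 2790 strongest candidates of each replicate allowed as matches, 8 of the 13 peaks were seen in both. Without replicate 1 the gene gained was eEF1beta. Without replicate 2 eIF3d1, eIF3m and eRF3 were gained and eEF5, eIF5B, eIF2A and eIF4A lost. The causes were not tested. Depth is unknown, so unlisted promoters were only below each list's weakest entry.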

Other observations

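The letters TCTTT were used as a simple stand-in for the pyrimidine-rich TCT initiator of translation genes. In a search chosen after seeing the data, they were looked for on the transcribed strand within 10 bp of any annotated TSS. Their position relative to the TSS was not fixed, so a match is not an initiator located at the start. They were found at 3 of 13 translation factor genes with a promoter peak (23.1%: eEF2, eEF5 and eIF4A) and at 5 of 41 without one (12.2%). The shares over all protein-coding genes were 6.19% with a peak and 2.97% without. Over the 54 genes it was 8 (14.8%), against 3.38% of all genes and 53 of 92 ribosomal protein genes (57.6%). Most translation factor genes with a peak thus lacked these letters within 10 bp of their annotated starts. Windows are given around the TSS of eEF2 and eIF4A, which had a peak, and of eIF3i and eIF3g1, which had none. They are from dm6 (RefSeq Release 6) on the gene strand, and capitals mark TCTTT. The TSS is the middle letter of each window. In each one TCTTT begins downstream of the TSS and does not span it.
eEF2, chr2L:21682106-21682126, minus strand: tgcagcgcctcgcTCTTTcct
eIF4A, chr2L:5981754-5981774, plus strand: gcaagatggagccTCTTTtgc
eIF3i, chr2L:4967765-4967785, minus strand: cacggtcacactgcTCTTTtg
eIF3g1, chrX:2610326-2610346, minus strand: cgcggcagggtaacacTCTTT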
